A study of Mus musculus with 6 samples.

Results

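The atrophy and denervation response genes described here are 10 mouse genes: the ubiquitin ligase genes Fbxo32, Trim63, Fbxo30 and Fbxo21, the forkhead factor genes Foxo1, Foxo3 and Foxo4, the myostatin gene Mstn, the transcription factor gene Runx1 and the stress gene Gadd45a. Their chromatin was followed through the accessible intervals of a deposited ATAC-seq table, and an interval was taken as a member where it overlapped the body of a gene of this list or lay within 10 kb of one of its annotated transcription start sites (TSS; GENCODE vM1, mm9). The rule took 33 intervals (0.083%) of a table in which 20826 intervals lay within 1 kb of a TSS and 18942 farther away. They belonged to 9 of the 10 genes, and Mstn had 0. The rule used positions only and no measured value.

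The study inactivated both genes of the histone variant H2A.Z in muscle fibres and compared chromatin accessibility with and without it. In ATAC-seq a transposase, Tn5, inserts adapters where DNA is free of nucleosomes, so the number of fragment ends in an interval measures how open it is. Each library was made from 50000 nuclei of C57BL/6 mice aged 7 weeks, and all carried floxed alleles of both H2A.Z-1 and H2A.Z-2. The 3 CTL libraries (WT in the labels) came from mice without Cre, and 3 libraries are labelled H2A.Z dKO, from mice with HSA-Cre. The latter are called the dKO-labelled libraries here, and a mean ± SD is over the 3 libraries of a group. The human skeletal actin promoter drives this Cre in differentiated fibres, so endothelium, fibroblasts and other resident cells outside the fibres are not targeted (satellite cells hold little H2A.Z in the first place, by the study's account), and in whole-muscle nuclei a loss of one cell type and a loss of accessibility within it cannot be told apart. The labels name tibialis anterior and nuclei purified on sucrose, whereas the methods describe hind limb muscles and a Dounce homogenizer with a buffer that also holds sucrose. The sources do not say whether each library came from a separate animal, so p-values measure the spread between libraries only.

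When a muscle is denervated, starved or unused, AKT signalling falls and FOXO factors move into the nucleus. There they switch on genes of protein breakdown, of which the ligases atrogin-1 (Fbxo32) and MuRF1 (Trim63) are the best known: they attach ubiquitin to muscle proteins and send them to the proteasome. Denervation also raises Runx1 and Gadd45a in fibres, and myostatin, a secreted member of the TGF-beta family, restrains muscle growth through activin receptors and SMAD proteins.

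Fragment ends inside the intervals summed to between 3520008 and 6117245 per library. Between replicates of a group, chi-square per interval was 1.45 to 4.80, so no pair of libraries agreed within sampling noise. The values of 4.48 and 4.80 were those of H2A.Z dKO replicate 1 against replicates 2 and 3, and this library also held 77.0% of its counts within 1 kb of a TSS, against 73.2% to 74.9% in the other 5. Inside the floxed segment of H2afz, the H2A.Z-1 gene (chromosome 3, 137528097 to 137529104), 2 intervals held 79, 69 and 33 counts in CTL and 57, 52 and 64 counts in the dKO-labelled libraries. This was 12.4 ± 2.80 CPM (counts scaled to the total of each library) and 11.3 ± 1.52 CPM, a difference within the replicate spread (two-sided exact permutation test, p = 0.6, where 3 against 3 cannot go below 0.1). The floxed segment of H2afv held 0 intervals. At these low counts no drop was detectable at the targeted gene, so the group is named by its label throughout. The study also measured the inactivation at the RNA and protein level, which was not analysed here.

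Promoters of 8 of 12 fibre markers were listed, Acta1, Ckm, Ttn and Myh4 among them, and summed to 454 ± 61.7 CPM in CTL and 461 ± 64.3 in the dKO-labelled libraries. The 4 listed endothelial markers of 6 (Cdh5, Kdr, Tie1, Tek) ranged from 55.9 to 68.9 CPM in CTL and from 46.0 to 50.9 CPM in the other group, without overlap (two-sided exact permutation test, p = 0.1). Fibroblast markers, 4 of 6 listed, ranged from 77.2 to 94.8 and from 93.6 to 100.5 CPM, while of 6 macrophage markers none had a promoter interval. Of 3 satellite cell markers only Cdh15 was listed (27.9 to 45.8 CPM in CTL, 42.0 to 49.5 CPM in the other group), without Pax7 and Myf5. The part of these shifts in the values below was not tested.

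The 33 intervals were between 34 and 514 bp wide. A total of 17 (51.5%) had their midpoint within 1 kb of a TSS of their gene and are called promoter intervals, close to the share of all intervals within 1 kb of any TSS (52.4%). Inside the gene bodies lay 24, and 9 lay outside. Accessibility is given as RPKM, the CPM of an interval per kilobase of its width, so that intervals and genes can be compared per length. The median member interval had 135 RPKM, against 115 RPKM over all intervals, and 24 of 33 were above that median. Foxo3 had the most intervals (7), followed by Fbxo30 (6), Foxo1 (5), Fbxo32 (4) and Runx1 (3), and Trim63, Fbxo21, Foxo4 and Gadd45a had 2 each. Interval ends are given as in the deposited table, which does not say whether starts are counted from 0 or from 1.

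**Figure D1:**
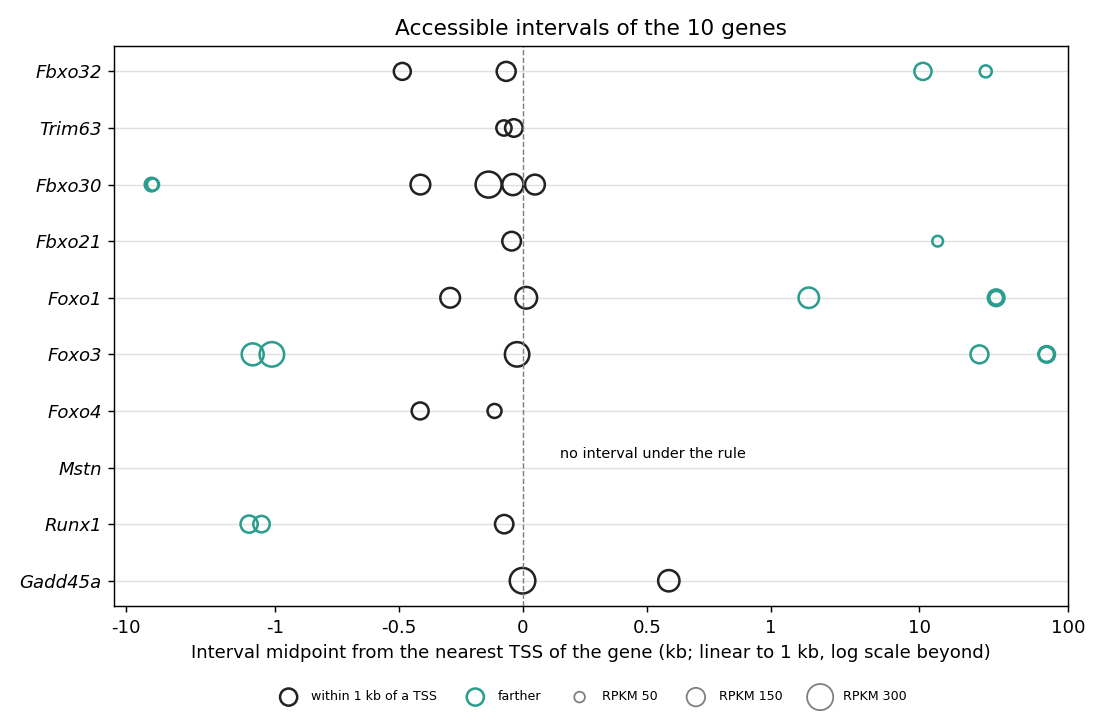
Each circle is 1 of the 33 intervals, placed by the distance of its midpoint from the nearest TSS of its gene (kb, linear to 1 kb and log scale beyond) and sized by its mean RPKM over the 6 libraries. The 17 black circles are promoter intervals, the 16 green ones lie farther from the TSS, and the row of Mstn is empty.

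Fbxo32 encodes atrogin-1, the muscle-specific F-box subunit of an SCF ligase, and lies on chr15:58011634-58046433 (minus strand). Its promoter carried a pair of intervals, Peak_31930 with its midpoint 67 bp upstream of the TSS and Peak_31931 486 bp upstream, both also within 1 kb of the TSS of Gm15943, so that their counts cannot be given to one gene alone. The mm9 reference sequence of the part of Peak_31930 upstream of the first exon is shown because it holds the TATA letters of this promoter, on the gene's strand, at chr15:58046434-58046617, with every searched motif in capitals (TATAAA and the GC box GGGCGG).
Fbxo32 promoter: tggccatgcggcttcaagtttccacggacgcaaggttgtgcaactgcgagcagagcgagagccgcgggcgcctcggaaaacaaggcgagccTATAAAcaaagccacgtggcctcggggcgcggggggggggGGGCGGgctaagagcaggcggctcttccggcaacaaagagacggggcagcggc
Peak_31930 measured 163, 162 and 141 RPKM in CTL replicates 1, 2 and 3 and 199, 143 and 141 RPKM in H2A.Z dKO replicates 1, 2 and 3. Only H2A.Z dKO replicate 1 stood above the range of the CTL libraries. The log2 fold change was 0.05 (standard error 0.16, 95% confidence interval -0.29 to 0.39). Deeper in the gene, in an intron 10.6 kb downstream of the TSS, Peak_31929 was the widest of the 33 intervals (514 bp, chr15:58035618-58036131) and measured 142, 129 and 134 RPKM in CTL against 114, 141 and 114 RPKM. Replicates 1 and 3 of the dKO-labelled libraries lay under all CTL libraries and replicate 2 among them, and the log2 fold change was -0.14 (-0.39 to 0.11). The intronic Peak_31928, 27.9 kb downstream, had the lowest log2 fold change of the members, -0.26 (-0.79 to 0.27), at 43.5 counts per library on average. It was -0.043 without CTL replicate 3 and -0.51 without CTL replicate 2. In the authors' column Peak_31928 belonged to CTL alone, so its direction is not independent of that listing.

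Trim63 encodes MuRF1, the RING-finger ligase of the sarcomere, and lies on chr4:133871035-133885544 (plus strand). Both of its intervals overlapped each other at the promoter, with midpoints 76 bp (Peak_9109) and 36 bp (Peak_9110) upstream of the TSS, and the rest of the gene had none. The authors listed Peak_9109 for CTL only and Peak_9110 for H2A.Z dKO only. The sequence upstream of the first exon, chr4:133870878-133871034 on the plus strand, is shown for its E-box, the CAGCTG to which myogenic bHLH factors bind, and its TATAAA.
Trim63 promoter: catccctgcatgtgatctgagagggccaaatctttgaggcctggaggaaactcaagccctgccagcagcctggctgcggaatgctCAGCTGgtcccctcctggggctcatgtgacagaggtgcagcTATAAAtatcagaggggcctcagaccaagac
Peak_9109 measured 100.3, 92.8 and 115 RPKM in CTL and 94.0, 115 and 94.1 RPKM in the dKO-labelled libraries, so that the highest library of each group was at 115 RPKM and the groups overlapped. Its log2 fold change was -0.02 (standard error 0.19, 95% confidence interval -0.42 to 0.37). Peak_9110 measured 130.4, 115 and 162 RPKM against 134, 150.2 and 118 RPKM. The authors' split of the pair between the groups was not matched by a difference in counts beyond the replicate spread at either interval.

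Fbxo30 encodes MUSA1, an F-box subunit that BMP signalling keeps low in innervated muscle, and lies on chr10:11001128-11017850 (plus strand). It had 4 promoter intervals, with midpoints from 413 bp upstream to 49 bp downstream of the TSS, all within 1 kb of the TSS of 4930432B10Rik as well, and a pair of weaker intervals 6.75 and 6.60 kb upstream. The part of Peak_21712 upstream of the first exon, chr10:11000952-11001127 on the plus strand, is shown because this interval had the smallest p of the 33, with its GC boxes (GGGCGG) in capitals.
Fbxo30 promoter: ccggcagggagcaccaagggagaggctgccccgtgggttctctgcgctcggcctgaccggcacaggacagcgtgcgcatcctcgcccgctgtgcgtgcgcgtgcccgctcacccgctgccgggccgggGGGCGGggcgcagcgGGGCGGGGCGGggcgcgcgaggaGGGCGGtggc
The authors listed Peak_21712 for H2A.Z dKO only, so its direction is not independent of that listing. It measured 189, 162 and 178 RPKM in CTL and 257, 184 and 201 RPKM in the dKO-labelled libraries. Replicates 1 and 3 of that group were above all CTL libraries, replicate 2 was among them, and the log2 fold change was 0.28 (standard error 0.14, 95% confidence interval -0.02 to 0.58; edgeR unadjusted p = 0.0625, adjusted p = 0.972). Without H2A.Z dKO replicate 1 it was 0.099 (edgeR unadjusted p = 0.414), and without replicate 2 it was 0.39. Peak_21711, 413 bp upstream, measured 168, 157 and 155 RPKM against 199.7, 169 and 172 RPKM (60.3 CPM in the highest CTL library and 60.4 CPM in the lowest library of the other group). It was the 1 member interval whose CPM were higher in every library labelled H2A.Z dKO than in any CTL library, where 5.26% of all intervals were so, with a log2 fold change of 0.17 (-0.08 to 0.43) that was 0.06 without H2A.Z dKO replicate 1. The narrow Peak_21713, inside Peak_21712, had the highest RPKM of the 33 in any library, 408 in H2A.Z dKO replicate 1, against 250.1 to 298 in the other 5 libraries.

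Fbxo21, on chr5:118426779-118460200 (plus strand), encodes another F-box protein that FOXO factors induce in denervated muscle. Its promoter interval Peak_11333, 45 bp upstream of the TSS, also lies within 1 kb of the TSS of a U6 gene. It measured 150.3, 162 and 162 RPKM in CTL and 119.5, 159.9 and 164 RPKM in the dKO-labelled libraries, of which replicate 1 was below the CTL range and replicate 3 just above it. The intronic Peak_11334, 13.3 kb downstream, was the weakest member, with 50.0 RPKM on average. The authors listed it for H2A.Z dKO only, so its direction is not independent of that listing. It had the largest log2 fold change of the 33, 0.40 (standard error 0.25, 95% confidence interval -0.11 to 0.91), from 38.7, 49.6 and 39.98 RPKM in CTL to 44.1, 70.0 and 57.5 RPKM. Replicates 2 and 3 labelled H2A.Z dKO were above CTL and replicate 1 was within it, and without that replicate the value was 0.55 (edgeR unadjusted p = 0.0349, adjusted p = 0.596). Without H2A.Z dKO replicate 2 it was 0.25 (edgeR unadjusted p = 0.372).

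Foxo1, Foxo3 and Foxo4 encode the forkhead factors that AKT holds in the cytoplasm. Foxo1 (chr3:52072259-52154031, plus strand) was open at its TSS, where Peak_5847 measured 206, 216 and 195 RPKM in CTL and 195, 215 and 206 RPKM in the dKO-labelled libraries. The groups covered nearly the same range, and its log2 fold change was -0.0076 (standard error 0.12, 95% confidence interval -0.26 to 0.24), near 0. In the first intron, 1.80 kb downstream and within 1 kb of the TSS of RP24-337A16.1, Peak_5848 measured 188, 184 and 198 RPKM against 174, 178 and 171 RPKM. All 3 dKO-labelled libraries were below all CTL libraries, by a log2 fold change of -0.12 (-0.46 to 0.22). The 34-bp Peak_5846, 293 bp upstream, and the overlapping intronic pair Peak_5849 and Peak_5850, 32.8 kb downstream, overlapped between groups.

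Foxo3 (chr10:41901647-41996561, minus strand) had the most counts of the 9 genes. At its TSS Peak_22076 measured 252, 293 and 243 RPKM in CTL and 283, 245 and 252 RPKM in the other group, and 1.05 kb upstream Peak_22077 measured 289, 294 and 235 RPKM against 277, 242 and 240.1 RPKM. In both intervals the groups overlapped. The intronic Peak_22075, 25.3 kb downstream, is shown by its central 300 bp on the gene's strand (chr10:41971076-41971375), because it holds TGTTTAC, the core letters bound by forkhead factors.
Foxo3 intron: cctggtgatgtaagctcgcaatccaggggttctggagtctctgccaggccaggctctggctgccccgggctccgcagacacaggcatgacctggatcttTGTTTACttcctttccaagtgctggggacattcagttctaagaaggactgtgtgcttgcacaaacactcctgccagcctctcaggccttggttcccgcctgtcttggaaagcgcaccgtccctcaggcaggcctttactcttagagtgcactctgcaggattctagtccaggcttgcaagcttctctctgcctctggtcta
This interval measured 161, 114 and 118 RPKM in CTL and 104, 188 and 156 RPKM in the dKO-labelled libraries, where replicate 1 was the lowest of all 6 libraries and replicate 2 the highest. The log2 fold change was 0.17 (standard error 0.17, 95% confidence interval -0.20 to 0.53), and without H2A.Z dKO replicate 1 it was 0.35 (edgeR unadjusted p = 0.00993, adjusted p = 0.523). The sign turned without H2A.Z dKO replicate 2 (-0.018; edgeR unadjusted p = 0.920), and the value without CTL replicate 1 was 0.36. A cluster of 3 intervals 71.4 to 71.7 kb downstream measured between 86.2 and 153 RPKM over all libraries, with overlapping groups.

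Foxo4 (chrX:98449867-98456212, plus strand) had 2 promoter intervals. The upstream one, Peak_39525, with its midpoint at 414 bp, also holds the forkhead letters, here as GTAAACA, the same motif on the other strand, and its whole sequence at chrX:98449350-98449557 on the plus strand is shown for them.
Foxo4 promoter: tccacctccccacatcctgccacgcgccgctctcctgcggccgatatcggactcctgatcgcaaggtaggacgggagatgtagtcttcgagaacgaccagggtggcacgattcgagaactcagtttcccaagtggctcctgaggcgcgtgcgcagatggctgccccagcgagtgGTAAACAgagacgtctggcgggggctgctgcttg
Peak_39525 measured 131, 132 and 123 RPKM in CTL and 144, 111 and 115 RPKM in the dKO-labelled libraries, which lay on both sides of the CTL range. Next to the TSS, Peak_39526 measured 74.4, 80.0 and 72.5 RPKM against 148, 70.1 and 68.6 RPKM. The value of H2A.Z dKO replicate 1 was far above the other 5, which lay between 68.6 and 80.0 RPKM. The log2 fold change of 0.36 (standard error 0.26, 95% confidence interval -0.18 to 0.90) rested on this library, and without it the value was -0.15.

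Runx1 encodes a transcription factor that denervated fibres switch on and that limits their wasting. The gene spans chr16:92601712-92826311 (minus strand) with 5 annotated TSSs, of which 1 had an interval within 1 kb. The part of that promoter interval, Peak_34394, upstream of the first exon there is shown on the gene's strand (chr16:92697574-92697797) with its CCAAT box letters, CCAAT or ATTGG, in capitals, since its groups did not overlap.
Runx1 promoter: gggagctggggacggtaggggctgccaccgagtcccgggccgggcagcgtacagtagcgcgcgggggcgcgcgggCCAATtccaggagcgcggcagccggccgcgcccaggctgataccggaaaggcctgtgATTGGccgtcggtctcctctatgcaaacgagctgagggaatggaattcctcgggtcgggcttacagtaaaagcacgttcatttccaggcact
Peak_34394 measured 151, 163 and 156 RPKM in CTL and 126, 142 and 149.9 RPKM in the dKO-labelled libraries. All libraries of the latter group were below the lowest CTL library, with a log2 fold change of -0.17 (standard error 0.13, 95% confidence interval -0.44 to 0.11; edgeR adjusted p = 0.972), and -0.12 without H2A.Z dKO replicate 1. Just upstream, in the intron of the longer transcripts, Peak_34395 (1.23 kb) and Peak_34396 (1.49 kb), both listed by the authors for H2A.Z dKO only, had log2 fold changes of 0.40 (-0.19 to 0.99) and 0.14 (-0.23 to 0.50). Peak_34395 is 41 bp wide and held 25.0 counts per library on average, and 69.3 to 124 RPKM in CTL against 107 to 179 RPKM. Its value was 0.099 without H2A.Z dKO replicate 1, 0.23 without CTL replicate 3 and 0.58 without CTL replicate 1, and that of Peak_34396 was 0.054 without H2A.Z dKO replicate 2.

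Gadd45a encodes a small nuclear protein of the stress response, and denervation raises it in fibres. Its gene (chr6:66985090-66987451, minus strand) is the shortest of the 10, and 2 intervals covered its promoter and coding exons. Peak_13022, over the TSS, had the most counts of the 33 (719 per library on average) and is shown by the 255 bp upstream of the first exon (chr6:66987452-66987706, gene's strand), with a GC box and a CCAAT box in capitals.
Gadd45a promoter: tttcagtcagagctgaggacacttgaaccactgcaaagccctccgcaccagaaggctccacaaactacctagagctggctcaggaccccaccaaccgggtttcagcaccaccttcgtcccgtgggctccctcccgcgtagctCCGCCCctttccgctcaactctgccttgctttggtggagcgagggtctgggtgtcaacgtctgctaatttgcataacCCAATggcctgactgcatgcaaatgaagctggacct
Peak_13022 measured 297, 304 and 299 RPKM in CTL and 255, 294 and 270.4 RPKM in the dKO-labelled libraries. The other group lay wholly under the narrow range of CTL, by a log2 fold change of -0.14 (standard error 0.10, 95% confidence interval -0.34 to 0.06; edgeR adjusted p = 0.972), and -0.11 without H2A.Z dKO replicate 1. Peak_13021, 589 bp downstream, went the other way, with 213, 182 and 182 RPKM against 197, 224 and 196 RPKM and a log2 fold change of 0.09, and its groups overlapped. Both intervals lie within 1 kb of the TSS of E230016M11Rik.

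**Figure D2:**
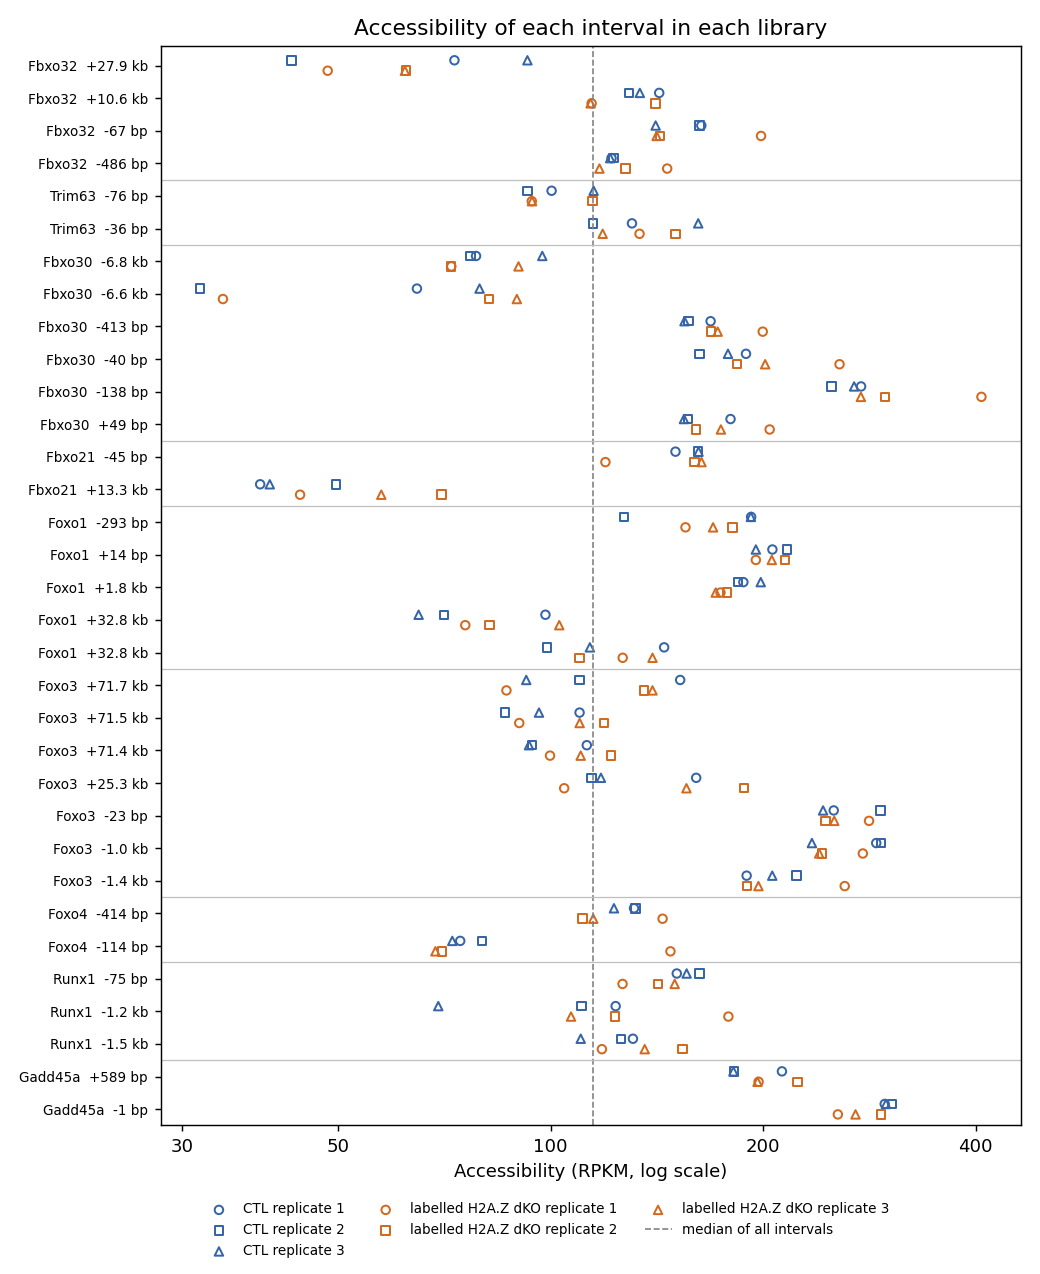
Accessibility (RPKM, log scale) of the 33 intervals in each of the 6 libraries, blue for CTL and orange for the dKO-labelled libraries, with rows named by gene and midpoint distance from the TSS and the dashed line at the median of all intervals (115 RPKM). Only 1 row (Fbxo30 at -413 bp) is higher and 3 rows (Foxo1 at +1.8 kb, Runx1 at -75 bp, Gadd45a at -1 bp) are lower in orange without overlap, where 5.26% and 5.3% of all intervals are so, and H2A.Z dKO replicate 1 stands apart at the Foxo4 interval at -114 bp.

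Across the whole table, the quasi-likelihood test of edgeR called 0 intervals at an adjusted p under 0.05 (0%; Benjamini-Hochberg), and so 0 of the 33. The adjusted p of the members ran from 0.972 to 0.9995. At an unadjusted p under 0.05 there were 0 member intervals higher and 0 lower in the dKO-labelled libraries, where 2.64% of all intervals were higher and 2.31% lower, and DESeq2 gave 0 members under either threshold (756 of all intervals at an unadjusted p under 0.05, against 1970 with edgeR). Log2 fold changes were above 0 at 18 members and below 0 at 15, with a median of 0.06 against 0.01 over all intervals. Promoter intervals had a median of -0.0042 (8 of 17 positive) and the other members 0.09 (10 of 16 positive), against 0.01 in both classes over all intervals. By the authors' column, 13 members belonged to the dKO-labelled group alone and 5 to CTL alone. Their directions are not independent of that listing, and its part in these medians and counts of signs was not tested.

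The size of a difference that these libraries leave possible was read from the 95% confidence intervals. They lay within a 2-fold change in either direction at 33 of 33 member intervals, against 91.4% of all intervals, and within 1.5-fold at 26 (78.8%, against 49.6% of all). Member intervals had more counts, with a median of 122 per library against 67.3. Without overlap between groups, 3 members were lower in the dKO-labelled libraries, those of Foxo1, Runx1 and Gadd45a described above, where 5.3% of all intervals were so.

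**Figure D3:**
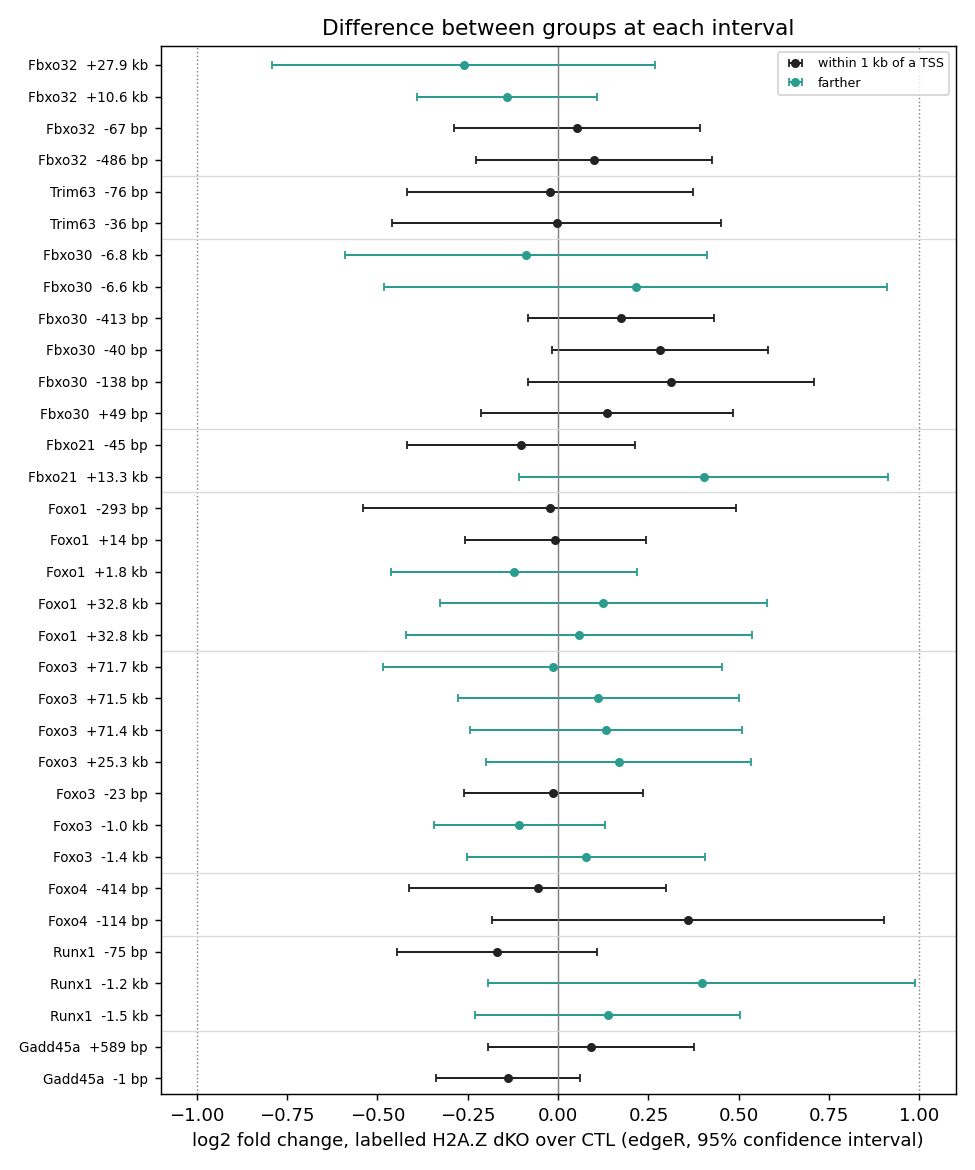
Log2 fold change (libraries labelled H2A.Z dKO over CTL) of each of the 33 intervals with its 95% confidence interval from edgeR, black for promoter intervals and green for those farther from the TSS. All 33 confidence intervals include 0 and stay between the dotted lines at -1 and 1, a 2-fold change in either direction.

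Counts were then summed over the intervals of each gene, which gives 1 value per gene and library, and tested over the 13484 protein-coding genes with an interval. Overlapping intervals, as at Trim63, Fbxo30, Foxo1 and Foxo3, were summed as they stand. Fragment ends in an overlap thus counted more than once, and confidence intervals of such sums can be too narrow. No gene was called (0%), the 9 members included, and 0 members had an unadjusted p under 0.05 by edgeR, where 4.5% of all genes did. Fbxo30 had the highest sum relative to CTL. It held 176, 154 and 167 CPM in CTL and 215, 175 and 184 CPM in the dKO-labelled libraries, of which replicates 1 and 3 were above all CTL libraries and replicate 2 was within their range. This was 116% of the CTL level (95% confidence interval 99.0% to 135%; log2 fold change 0.21, edgeR adjusted p = 0.969), and the log2 fold change was 0.09 without H2A.Z dKO replicate 1.

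Fbxo32 and Trim63, the pair of ligases most used as markers of atrophy, were at 96.8% (84.4% to 111%) and 98.9% (78.9% to 124%) of CTL. Their sums were 146 ± 5.66 CPM in CTL and 141 ± 10.3 in the dKO-labelled libraries for Fbxo32, and 27.5 ± 3.74 and 27.0 ± 3.10 for Trim63. The confidence intervals of Foxo1 (99.2%, 87.2% to 113%) and Foxo3 (101%, 88.6% to 115%) were among the 4 narrowest of the 9, with those of Gadd45a and Fbxo32. Foxo4 had the widest of the 9, from 82.8% to 143%, and its log2 fold change of 0.12 became -0.19 without H2A.Z dKO replicate 1. Runx1 stood at 97.8% (84.2% to 114%), Fbxo21 at 98.5% (80.6% to 120.2%) and Gadd45a at 94.2% (83.3% to 107%).

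**Figure D4:**
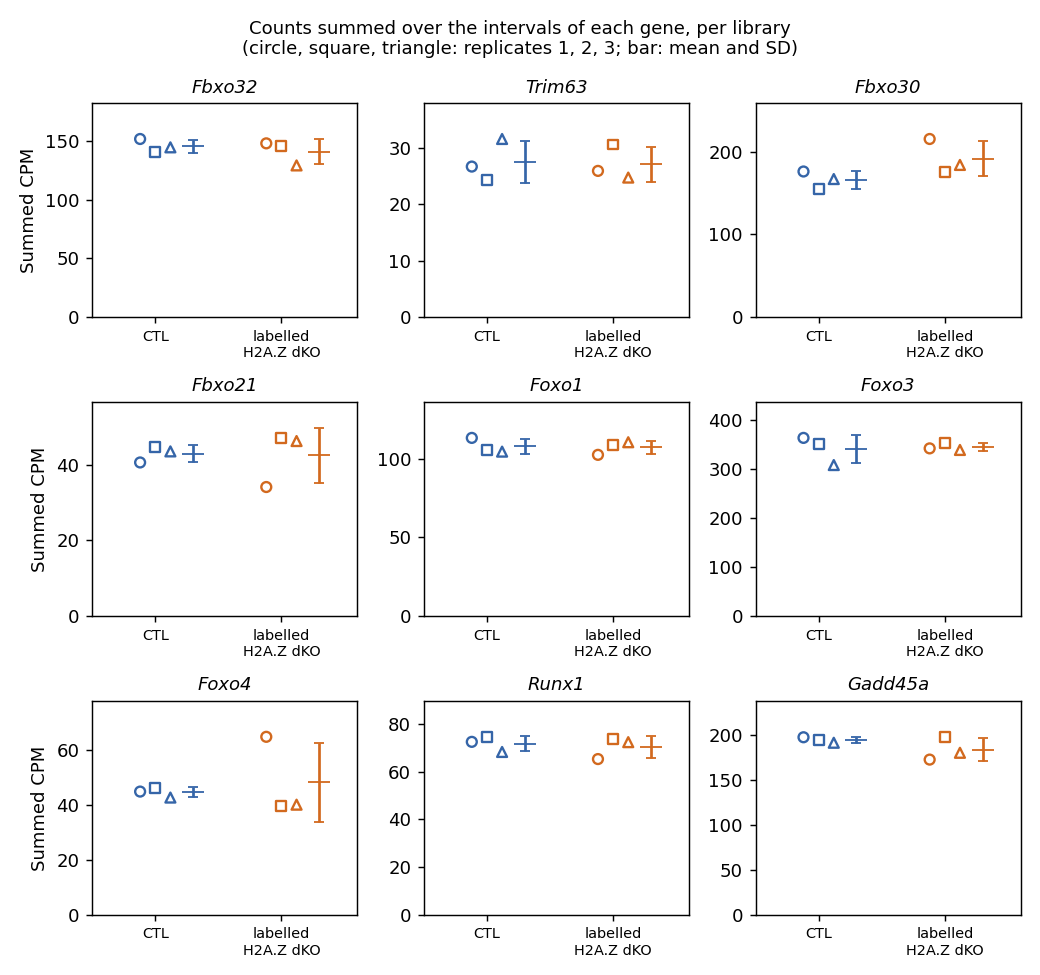
Summed CPM of the intervals of each of the 9 genes in each library, with the mean and SD of each group and axes from 0. Groups overlap in all 9 panels, and the Foxo4 value of H2A.Z dKO replicate 1 (64.7 CPM) lies above the other 5 libraries (39.6 to 46.2 CPM).

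Promoter intervals alone, summed and tested over the 10980 genes with one, gave no call either (0%), and 0 members at an unadjusted p under 0.05 by edgeR, against 4.26% of all genes. Without overlap between groups, 0 of the 9 were higher in the dKO-labelled libraries and 1, Runx1, lower, where 4.27% and 6.59% of all these genes were so. Ranked by RPKM among these genes, the promoters of Foxo3 (percentile 95.8) and Gadd45a (95.7) were among the most open, followed by Foxo1 (84.8) and Fbxo30 (80.6). Fbxo21 (62.7), Runx1 (59.4) and Fbxo32 (55.0) lay nearer the middle, and Trim63 (31.3) and Foxo4 (24.7) in the lower part. Neighbours in this order differed by less than their spread between libraries in several places: Foxo3 measured 263 ± 26.8 RPKM in CTL and Gadd45a 268 ± 4.22, and Fbxo21 158 ± 6.72 and Runx1 156 ± 5.85. Fbxo30 was below Foxo1 in CTL (175 ± 10.2 and 202 ± 6.06 RPKM), where their SD ranges did not meet, but not in the dKO-labelled libraries (204 ± 28.9 and 201 ± 10.2 RPKM). Likewise Fbxo32 was below Runx1 in CTL (138 ± 6.49 and 156 ± 5.85 RPKM) and not in the other group (145 ± 23.1 and 139 ± 11.9 RPKM). The SD ranges of Foxo1 and Gadd45a (268 ± 4.22 RPKM in CTL and 253 ± 17.9 in the other group) did not meet in either group.

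The share of all counts that fell in member intervals was 0.114% ± 0.00428 in CTL and 0.116% ± 0.00262 in the dKO-labelled libraries (two-sided exact permutation test, p = 0.7). Of these counts 61.9% ± 1.46 and 62.1% ± 2.27 fell in promoter intervals (two-sided exact permutation test, p = 0.9). The authors' column listed 15 members for both groups (45.5%, against 38.7% of all intervals), 13 for H2A.Z dKO only (39.4%, against 43.4%) and 5 for CTL only (15.2%, against 17.9%).

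Mstn (chr1:53118507-53124923, plus strand) had no interval in its body or within 10 kb of its TSS. The nearest, Peak_434 (chr1:53094390-53094935), lay 23.8 kb upstream, outside the rule, and held 369, 180 and 133 counts in CTL and 174, 229 and 268 counts in the dKO-labelled libraries. On the other side the next interval was 235 kb away, at the TSS of Ormdl1. The same rule found an interval for 60.3% of the 22367 protein-coding genes, and 49.1% had one within 1 kb of a TSS, so a gene without any is common in this table. In the 250 bp upstream of the TSS, Mstn had a GC content of 41.6%, the 12.6th percentile of 70051 TSSs and the lowest of the 10 genes. With all TSSs ranked by this GC content in 4 bins, 9.59% of the lowest bin had an interval within 1 kb, against 30.3%, 54.3% and 77.1% in the next bins, and the part of base composition in the result for Mstn was not tested. Absence from the list does not show that the gene was closed. The methods count more intervals than the table used here, and fragment ends outside its intervals were not analysed here. Under the rule of the methods, a peak missed in any replicate of a group was dropped for that group. Whether that rule made the list used here is not known.

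**Figure D5:**
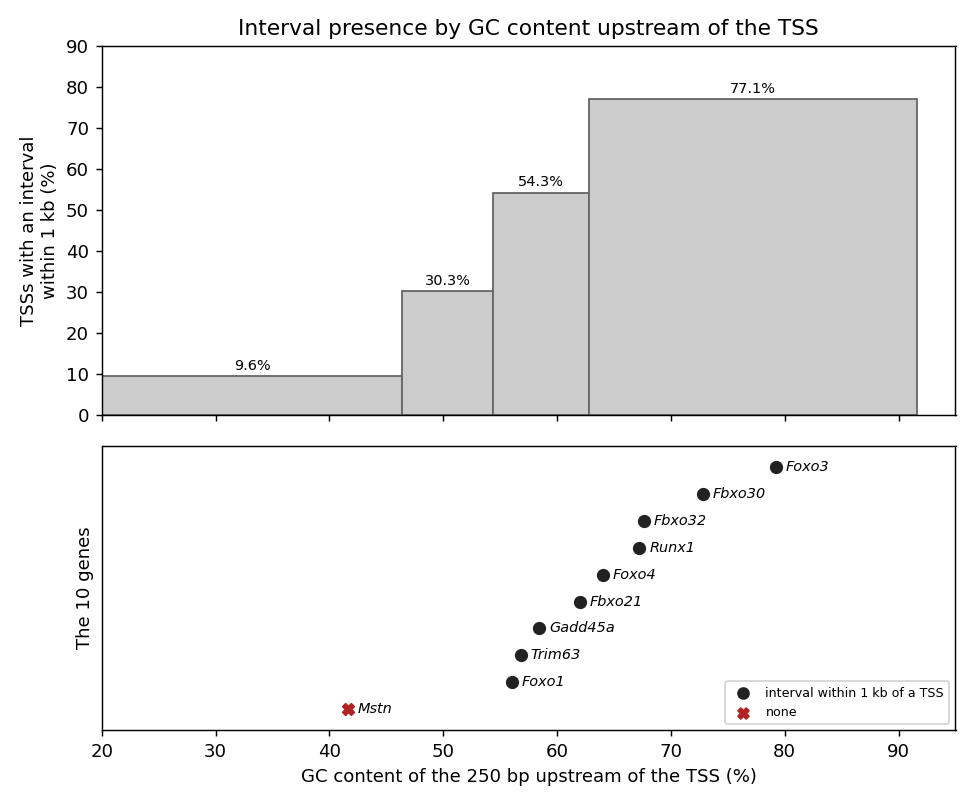
Above, the share of annotated TSSs with an interval within 1 kb, in 4 bins of TSSs by the GC content of the 250 bp upstream (bars drawn over the GC range of each bin, axis from 20%); below, the 10 genes by the same GC content. Mstn, the gene without an interval, is the only one in the lowest bin.

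The 250 bp upstream of the TSS, 1 window per gene, were searched on both strands for 9 motifs. The forkhead core TGTTTAC occurred in 1 of the 10 windows, that of Trim63, and in 2.64% of all TSS windows. Trim63 also held the E-box CAGCTG (1 of 10, against 12.996% of all) and ACANNNTGT, the letters of a steroid receptor site (1 of 10, 5.06%). TATAAA stood in 3 windows, those of Fbxo32, Trim63 and Mstn, and in 10.3% of all. The GC box GGGCGG occurred in 6 (37.5% of all), CCAAT in 4 (31.8%) and the AP-1 letters TGANTCA in that of Mstn (5.69%), while the RUNX core TGTGGT (13.3%) and the MEF2 motif (2.41%) were in none. The letters TATAAA can occur inside a MEF2 motif, and a match describes letters, not a bound factor.

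Of windows of 200 bp centred on the intervals, the forkhead core was in 3 of 33, at Foxo1 (Peak_5846), Foxo3 (Peak_22075) and Foxo4 (Peak_39525), and in 2.03% of all intervals. CAGCTG was in 6 (17.5% of all), TGTGGT in 1 (10.1%), at the intron of Fbxo21, and TGANTCA in 3 (7.49%). GGGCGG was in 15 (35.8%), CCAAT in 8 (22.8%) and TATAAA in 4 (4.60%). The steroid receptor letters (4.60%) and MEF2 (3.005%) were in none. Overlapping intervals repeat sites in these counts. Trim63 Peak_9109 and Peak_9110 hold the same CAGCTG and the same TATAAA, and Foxo3 Peak_22073 and Peak_22074 the same CAGCTG. GC boxes are repeated likewise among the overlapping Fbxo30 and Foxo3 intervals.

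The other genes of the response were taken from lists of 55 genes, chosen for their known roles, of which 54 were found in the annotation (Tfeb was not, so it could not be looked up) and 48 had an interval. With all 6 libraries none was called and none had an unadjusted p under 0.05 by edgeR in either direction (0% and 4.5% of all genes); 25 were positive and 23 negative, with a median log2 fold change of 0.01 against -0.0051 over all genes. Without overlap between groups, 2 were higher in the dKO-labelled libraries (Eif4ebp1 and Bmpr1a) and 1 lower (Ctsl), where 4.38% and 6.17% of all genes were so. Of 9 further ubiquitin ligases, such as Cblb, Nedd4 and Traf6, 4 were positive and 5 negative, with values from -0.18 to 0.06. Insulin, AKT and FOXO signalling had 9 positive and 4 negative members of 13. The lowest p among the higher genes was that of Eif4ebp1, the translation repressor 4E-BP1 (0.18, -0.0021 to 0.36; 139, 125 and 136 CPM in CTL and 151, 154 and 149.8 CPM in the other group, without overlap), and among the lower genes that of Akt1 (-0.23, -0.57 to 0.10), at an edgeR adjusted p of 0.969 each.

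In myostatin, activin and BMP signalling 10 of 13 genes had an interval, and Inhba, Fst and Gdf5 had none. Bmpr1a, a BMP receptor, had a log2 fold change of 0.24 (-0.0079 to 0.48) without overlap between groups (110.4 to 134 CPM in CTL and 135 to 167 CPM in the dKO-labelled libraries), and Smad5, which carries the BMP signal, -0.16 (-0.40 to 0.09). Without H2A.Z dKO replicate 1 these were 0.11 and -0.30, the latter at an edgeR unadjusted p of 0.00341 (adjusted p = 0.425). Of 13 regulators of the denervated fibre, 10 had an interval, with Myog and Dach2 among those without. The largest value of the lists, 0.52 (-0.07 to 1.11), was that of Musk, the receptor kinase of the neuromuscular junction, from a single interval at 6.31 ± 1.29 CPM in CTL and 9.42 ± 3.33 in the other group, and it was 0.27 without H2A.Z dKO replicate 3 and 0.77 without H2A.Z dKO replicate 1 (edgeR unadjusted p = 0.00339, adjusted p = 0.425). The 6 autophagy genes found in the annotation all had an interval, with 1 positive and 5 negative values between -0.12 and 0.07 and the lowest p at Ctsl, a lysosomal protease (-0.12; 78.2 to 80.7 CPM in CTL and 68.6 to 76.7 CPM in the dKO-labelled libraries, without overlap; edgeR adjusted p = 0.969, as for Bmpr1a, Smad5 and Musk).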

How the data were processed

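The authors trimmed reads with Trimmomatic, aligned pairs to mm9 with Bowtie2, removed duplicates with Picard, shifted fragment ends for Tn5 and called peaks with MACS2, as the methods and the submitters' processing notes name these tools. They deposited raw counts of fragment ends per union interval and library (6 columns), with interval ends, a column of the groups an interval was listed for, and columns of their own DESeq2 comparison, which hold fold changes and p-values and were not used; 0 columns of samples were left unused. The deposited header lacks 1 name, so columns were taken by number and checked by their values. The file names pooled peaks of the wide model, whereas the methods keep regions shared by replicates and count more intervals for that model; any others were not analysed here.

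All 39768 intervals were kept; 2 end past their chromosome. The groups were compared with the robust quasi-likelihood test of edgeR 4.0.16 in R 4.3.3, with TMM factors (0.971 to 1.02) and the group as the only term, on the whole table, on sums per gene and on sums of promoter intervals, with Benjamini-Hochberg adjustment over all and a threshold of 0.05. Standard errors were taken from the log2 fold change and the F value of the fit, and 95% confidence intervals from its t quantile. Depth was 3520008 to 6117245 counts per library, and the errors given hold counting noise and replicate spread but no PCR copies left after filtering. The fit was also run on simulated counts with 200 changed intervals, all changed by more than any member value above. The outcome is not reported here, and the run does not bear on smaller differences. DESeq2 1.42.0 and the alternatives of the closing section were fitted alike, and Python 3.11.15, pandas 2.3.3, scipy 1.17.1 and pysam 0.24.0 handled tables, exact permutation tests and sequences. Annotation was GENCODE vM1, and printed sequences were read from the mm9 genome, with exons of coding genes left out.

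The members and the lists of markers and other genes were chosen with earlier results of these data known. All 10 genes are named, with their promoter intervals, those of the highest mean RPKM and of the smallest p, and from the other genes the 3 with the smallest p in each direction. Expression and H2A.Z binding were not analysed here, and 1 of the marker lists is not reported here.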

Additional observations from a re-analysis of the deposited data

How the results depend on the processing

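The values of member intervals, gene sums and promoter sums were recomputed with DESeq2, with median-of-ratios factors, with total counts only and with the replicate number as a block, the intervals and gene sums also after a filter on low counts, and the gene sums also without intervals that overlap the one before them. No member interval, gene sum or promoter sum changed sign or was called under these, and the count of calls stayed at 0 also at an adjusted p under 0.1 and with members taken within 1 kb of a TSS or inside gene bodies only. Leaving out each library in turn also gave 0 calls. The 6 named genes of the other lists were refitted in the same ways as the gene sums, an addition chosen after seeing the data, and none changed sign or was called; their values moved by over 1.5 times when single libraries were left out at Akt1 (-0.35 to -0.16), Bmpr1a (0.11 to 0.30), Musk (0.27 to 0.77) and Smad5 (-0.30 to -0.072). Marker sums and the floxed segment were not recomputed. The filter and the fit without overlapping intervals were not run on the promoter sums. Replicate numbers did not pair the libraries (correlations of same-numbered deviations -0.10, -0.05 and -0.03), and the fit with a replicate block called 0 intervals, 0 gene sums and 0 promoter sums of the members, as without it.

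The count of members at an unadjusted p under 0.05 moved. Among intervals it ranged from 0 to 4 when 1 library was left out: 4 without H2A.Z dKO replicate 1 (Fbxo21 Peak_11334, Fbxo30 Peak_21710, Foxo3 Peak_22075 and Peak_22077), 2 without replicate 2 (Fbxo30 Peak_21712 and Foxo4 Peak_39526) and 1 without replicate 3 (Foxo4 Peak_39526), where 7.95%, 5.38% and 5.6% of all intervals were so. Among gene sums it was 1, Fbxo30, with total counts only and without H2A.Z dKO replicate 2, where 4.24% and 5.19% of all genes were so, and among promoter sums 1, Fbxo30, without that replicate (5.37% of all), with ranges of 0 to 1. Of the 48 genes of the other lists, 5 were under this p without H2A.Z dKO replicate 1 (10.4%, against 8.34% of all genes). They were Sirt1, Acvr2b, Smad5, Musk and Tnfrsf12a. The count was 2 without replicate 2 of that group (4.17%, against 5.19%) and 3 without its replicate 3 (6.25%, against 5.53%). It was 1 without CTL replicate 2 (2.08%, against 3.17%). With total counts only, Eif4ebp1 and Bmpr1a were so (4.17%, against 4.24%). With the replicate block it was Bmpr1a alone (2.08%, against 3.68%), and without overlapping intervals Eif4ebp1 alone (2.08%, against 4.4%). The other fits gave 0. The difference in the share of counts in member intervals, 0.0015 percentage points, lay between -0.00050 (CTL replicate 3 left out) and 0.0038 (CTL replicate 1 left out). The cause was not tested.

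Signs turned when single libraries were left out at 17 of 33 intervals, 6 of 9 gene sums and 6 of 9 promoter sums, whose confidence intervals with all 6 libraries include 0. The log2 fold changes then ranged as follows for intervals: Fbxo21 Peak_11333 -0.19 to 0.016, Fbxo30 Peak_21709 -0.20 to 0.0088, Fbxo30 Peak_21710 -0.077 to 0.55, Fbxo32 Peak_31930 -0.16 to 0.14, Fbxo32 Peak_31931 -0.020 to 0.17, Foxo1 Peak_5846 -0.19 to 0.10, Foxo1 Peak_5847 -0.040 to 0.030, Foxo1 Peak_5849 -0.014 to 0.35, Foxo1 Peak_5850 -0.064 to 0.25, Foxo3 Peak_22072 -0.15 to 0.23, Foxo3 Peak_22075 -0.018 to 0.36, Foxo3 Peak_22076 -0.10 to 0.074, Foxo3 Peak_22078 -0.11 to 0.17, Foxo4 Peak_39525 -0.21 to 0.023, Foxo4 Peak_39526 -0.15 to 0.55, Trim63 Peak_9109 -0.11 to 0.057 and Trim63 Peak_9110 -0.10 to 0.12. For gene sums they were Fbxo21 -0.094 to 0.10, Fbxo32 -0.11 to 0.012, Foxo1 -0.034 to 0.029, Foxo3 -0.051 to 0.065, Foxo4 -0.19 to 0.25 and Trim63 -0.098 to 0.083, and for promoter sums Fbxo21 -0.19 to 0.016, Fbxo32 -0.097 to 0.15, Foxo1 -0.033 to 0.0072, Foxo3 -0.10 to 0.074, Foxo4 -0.19 to 0.25 and Trim63 -0.097 to 0.083. The sign held for the gene sums of Fbxo30 (0.090 to 0.28), Gadd45a (-0.13 to -0.065) and Runx1 (-0.064 to -0.0014), which all moved by over 1.5 times, and for the promoter sums of Fbxo30 (0.070 to 0.30) and Gadd45a (-0.13 to -0.065), which did as well, and Runx1 (-0.23 to -0.12). H2A.Z dKO replicate 1 turned 9 intervals, more than any other library. The sign held at the other 16 intervals, of which 13 moved by over 1.5 times, among them Fbxo30 Peak_21713 0.087 to 0.43 and Peak_21714 0.0021 to 0.22, Fbxo32 Peak_31929 -0.23 to -0.094, Foxo3 Peak_22073 0.030 to 0.22, Peak_22074 0.071 to 0.24 and Peak_22077 -0.21 to -0.050, and Gadd45a Peak_13021 0.040 to 0.18. At the median member, with 122 counts per library, counting error alone is 9.05%, and the spread between replicates beyond it, which edgeR estimated over all intervals, was 12.6%. PCR copies left after duplicate removal are not in these counting errors.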

Other observations

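The median coefficient of variation of CPM over the 33 intervals was 9.29% in CTL and 13.1% in the other group, with ranges of 0.577% to 41.5% and 1.85% to 47.4%. H2A.Z dKO replicate 1 was the highest of the 6 libraries at 10 of 33 intervals and at 8 of the 17 promoter intervals, among them those of Fbxo32, Fbxo30 and Foxo4, while each other library was the highest at 1 to 4 promoters. Over all intervals, this library held 77.0% of its counts within 1 kb of a TSS, against 73.2% to 74.9% in the other 5. How often it was the highest over all promoter intervals was not counted, so the member count has no background. The summed CPM of H2A.Z dKO replicate 1 over the member promoters was 756, against 689 to 714 in the other 5 libraries, and over the other member intervals 414, against 409 to 472. The difference in spread between the groups was not tested.

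The summed promoter CPM of fibre markers was lowest in CTL replicate 2 (384) and H2A.Z dKO replicate 1 (387), against 476 to 506 in the other 4 libraries. At 4 of 16 member intervals away from promoters (25.0%), the lowest library of each group was this same pair: Fbxo30 Peak_21710, Foxo3 Peak_22073 and Peak_22075 and Fbxo32 Peak_31928. At promoter intervals it was 2 of 17 (11.8%), Trim63 Peak_9109 and Foxo1 Peak_5846. Over all intervals these shares were 25.3% and 11.4%, so the members were near the background in both classes. This count was chosen after the values were seen, and the part of fibre content in it was not tested.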
